A study of Caenorhabditis elegans with 2 samples.

Results

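The dosage compensation complex genes of Caenorhabditis elegans are the 10 genes sdc-1, sdc-2, sdc-3, dpy-21, dpy-26, dpy-27, dpy-28, dpy-30, mix-1 and capg-1, out of 19973 protein-coding genes in the annotation. They were chosen by name, and all 10 were found in the gene models. Each gene was given every ChIP-seq peak whose summit fell in its window, which reached from 2000 bp before to 200 bp past any of its annotated transcript starts. The data are peak lists from chromatin immunoprecipitation and sequencing of CEH-39 fused to eGFP, in 1 group of 2 biological replicates of whole embryos of mixed stage and mixed sex. The strain was OP169, genotype unc-119(ed3) III; wgIs169, where wgIs169 is an integrated transgene of the tagged factor. The sources used here give neither the promoter that drives the transgene nor its copy number. No strain without the transgene was compared, and the control library was not analysed here, so the members are set against all other protein-coding genes of the same lists.

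Hermaphrodite worms carry a pair of X chromosomes and males a single one, and the dosage compensation complex lowers transcription from both hermaphrodite X chromosomes. SDC-2 is the hermaphrodite-specific protein that starts assembly on X, and the zinc finger proteins SDC-1 and SDC-3 act with it. DPY-27 and MIX-1 are the SMC subunits of a specialised condensin, DPY-26 is its kleisin, and DPY-28 and CAPG-1 are its other subunits. DPY-21 is a histone H4 lysine 20 demethylase, and DPY-30 is also a subunit of the COMPASS histone H3 lysine 4 methyltransferases. CEH-39, a ONECUT homeodomain protein encoded on X, is an X signal element that acts upstream of all of them through the switch gene xol-1.

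The DNA under the peaks that carry the results is shown first, so that the motif matches below can be read in place. Each line gives the 101 bases centred on a summit, 5′ to 3′ on the coding strand of the member, from the RefSeq WBcel235 genome, the assembly that ce11 names. Capitals mark matches on either strand to the hexamers searched. The ONECUT core ATCGAT was searched together with its variant ATTGAT. The other hexamers were picked because earlier results of these data had shown them to be frequent at summits, namely ACGCAG, then the repeat GAGAGA, then the CpG-rich ACGCGC. The mix-1 summit lies in an exon, so its line gives only the 139 bases of the peak that precede the gene. The windows are those of dpy-30 (chrV:12191142-12191242, plus strand), dpy-27 (chrIII:3820270-3820370, minus strand), dpy-26 (chrIV:12451399-12451499, minus strand) and mix-1 (chrII:10824107-10824245, plus strand). The remaining lines are the pooled peak of sdc-1 (chrX:16275364-16275464, plus strand) and the peaks upstream of dpy-21 (chrV:17951333-17951433, minus strand) and dpy-28 (chrIII:10759157-10759257, plus strand). These upstream peaks are from the authors' IDR list, described below.
dpy-30: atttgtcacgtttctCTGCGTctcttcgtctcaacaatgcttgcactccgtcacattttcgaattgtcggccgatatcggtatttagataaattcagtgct
dpy-27: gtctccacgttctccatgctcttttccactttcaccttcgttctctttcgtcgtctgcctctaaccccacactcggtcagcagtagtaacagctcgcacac
dpy-26: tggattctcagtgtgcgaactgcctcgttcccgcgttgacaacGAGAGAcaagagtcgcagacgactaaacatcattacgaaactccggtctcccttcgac
mix-1: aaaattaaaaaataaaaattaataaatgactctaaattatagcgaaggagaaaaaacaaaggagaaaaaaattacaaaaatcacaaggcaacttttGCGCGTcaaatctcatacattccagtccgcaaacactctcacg
sdc-1: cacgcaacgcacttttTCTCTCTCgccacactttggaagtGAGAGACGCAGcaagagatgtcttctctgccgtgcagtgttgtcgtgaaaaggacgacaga
dpy-21, upstream: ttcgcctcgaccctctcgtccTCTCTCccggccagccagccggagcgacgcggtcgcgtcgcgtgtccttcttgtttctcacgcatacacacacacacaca
dpy-28, upstream: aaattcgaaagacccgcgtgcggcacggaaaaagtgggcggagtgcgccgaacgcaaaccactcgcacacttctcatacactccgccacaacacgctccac

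Of the 10 genes, the condensin genes mix-1, dpy-26 and dpy-27 and the gene dpy-30 had a window summit in the optimal IDR list. This list holds the 1244 peaks that the authors kept by the irreproducible discovery rate. They were the 1244 peaks with the highest signal values in the pooled list, and 1182 of them had an overlapping peak in replicate 2. Being in the list thus does not mean a strong peak in each replicate. The count is 4 of 10, against 8.32% of all protein-coding genes, taken whatever their expression in embryos, which was not examined. The 95% exact interval, from 12.2% to 73.8%, covers counting error only. It treats the genes as random draws, which they were not, so it is no comparison with the share of all genes. In the relaxed lists, which hold background by construction, 8 of 10 had a summit in the pooled list against 55.1% of all genes. The same 8 of 10 had one in replicate 1 against 52.6%, and 9 of 10 had one in replicate 2 against 56.4%. In both replicate lists 7 of 10 had a summit, against 38.6%. The genes were picked with earlier results of these data known, and no test was made of the counts. A peak present in fewer cells and weaker binding in every cell cannot be told apart in whole embryos.

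**Figure D1:**
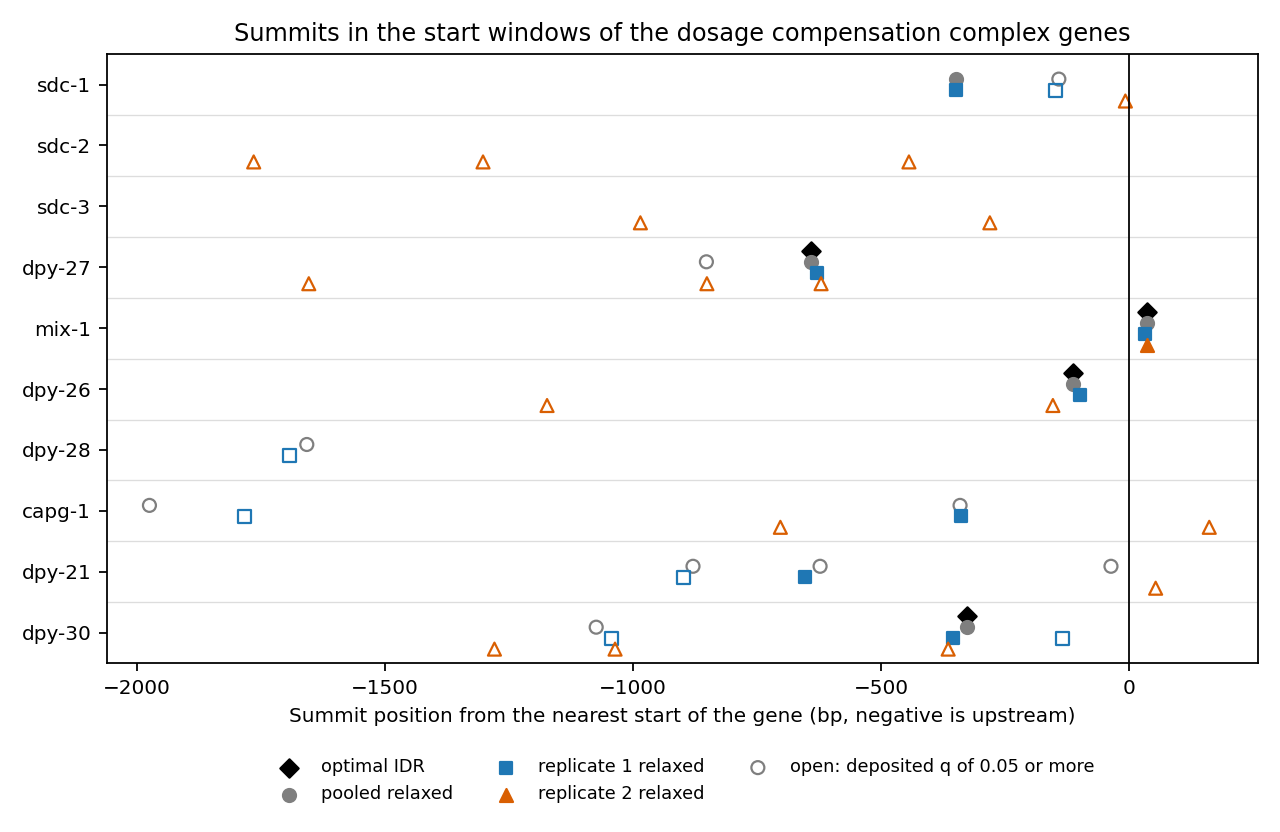
Positions of all summits in the windows of the 10 genes. The x axis is the distance in bp from the nearest start of the gene, negative upstream, each row is a gene, symbols and colours are the lists, and open symbols have a deposited q-value of 0.05 or more. The IDR summits of dpy-30, dpy-26 and mix-1 lie within 327 bp of the start, sdc-2 and sdc-3 have summits of replicate 2 alone, and dpy-28 has none nearer than 1657 bp.

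Counting only peaks with a deposited q-value under 0.05 set the lists apart. In the pooled list 5 of 10 genes had such a peak, the 4 named above and sdc-1, against 15.7% of all genes. In replicate 1 there were 7 of 10, with dpy-21 and capg-1 added, against 20.4%. In replicate 2 there was 1 of 10, mix-1, against 5.03%. Replicate 2 held 790 peaks under this q-value and replicate 1 held 3958, so the replicate 2 list offered fewer such peaks to any gene. The peaks are ranked here by column 7, the authors' own signal value of a peak, whose scale is not stated. Ranks from lists of different lengths (30000 peaks for the pooled list and for replicate 1, 27014 for replicate 2) show no change between them. The median over the 10 genes of the highest signal value in the window, with 0 for no peak, was 45.8 in the pooled list, against 17.3 over all genes. It was 42.8 in replicate 1, against 10.3, and 14.3 in replicate 2, against 9.60.

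Among the SDC genes, which lead the complex to X, none had an IDR summit in its window. The gene sdc-1 (WBGene00004745, chromosome X, 16275763 to 16282534, plus strand) came closest. Its pooled peak lay 349 bp upstream of the start with a signal value of 51.4, at rank 2402, and a q-value of 0.0239. Replicate 1 placed a peak at the same base, with a signal value of 50.1 at rank 1750. The only replicate 2 peak in the window lay elsewhere, 8 bp upstream of the start, with a signal value of 14.1 at rank 6842 and a q-value of 0.796. The sdc-1 position was thus found in the pooled list and in replicate 1 but not in replicate 2. By highest pooled signal value sdc-1 stood 2876 among the 19973 genes. The nearest IDR summit was 34918 bp upstream.

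The gene sdc-2 (WBGene00004746, chromosome X, 11522707 to 11533450, plus strand) had no summit in its window in the pooled list or in replicate 1. Replicate 2 alone held 3 peaks there, 444, 1302 and 1764 bp upstream. The strongest of them, at 1302 bp, had a signal value of 21.9, rank 1300 and a q-value of 0.169. The gene sdc-3 (WBGene00004747, chromosome V, 15039148 to 15048207, minus strand) showed the same absence from the pooled list and replicate 1. Its 2 replicate 2 peaks, 281 and 985 bp upstream, reached a signal value of 14.3 at rank 6448. The nearest IDR summits were 83271 bp from the start of sdc-2 and 17016 bp from that of sdc-3. No peak of sdc-2 or sdc-3 reached a q-value of 0.05 in any list.

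Of the SMC subunits, dpy-27 (WBGene00001086, chromosome III, 3813018 to 3819679, minus strand) had its IDR peak at chrIII:3820145-3820494, with the summit 641 bp upstream. This was the IDR summit farthest from its start among the 4, outside the shorter window of 500 bp. The signal value was 94.8, rank 832 of 1244. The matching peak of replicate 1 had a signal value of 86.4 at rank 665, and that of replicate 2 a signal value of 13.8 at rank 7429 with a q-value of 0.810. In replicate 2 it was not even the strongest peak in the window, since another at 1653 bp upstream stood at rank 6428. The dpy-27 peak therefore rested on replicate 1: among IDR peaks with a replicate 2 peak, 91.5% ranked as high or higher in replicate 2.

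MIX-1 is the SMC subunit that the complex shares with the mitotic condensins. The gene mix-1 (WBGene00003367, chromosome II, 10824246 to 10841424, plus strand) had its IDR peak at chrII:10824107-10824456, with the summit 36 bp downstream of the start, in the first exon. Its signal value of 82.6, rank 1081 of 1244, was the lowest of the 4 members and stood above the lowest value in the IDR list, 76.5. Replicate 1 gave 59.9 at rank 1288, and replicate 2 gave 28.7 at rank 564 with a q-value of 0.0151. It was the only one of the 4 peaks with a smaller rank number in replicate 2 than in replicate 1. The same held for 442 of 1176 IDR peaks found in both lists, or 37.6%. The lists differ in length, so this shows no change between them. The 3 summits coincided closely, with replicate 1 5 bp from the IDR summit and replicate 2 at the same base. A second IDR peak lay inside mix-1, in an exon 15971 bp from the start, with a signal value of 93.3 at rank 857. It falls outside every window used for mix-1.

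DPY-26, the kleisin that closes the ring of the SMC pair, is encoded by dpy-26 (WBGene00001085, chromosome IV, 12445801 to 12451335, minus strand). The IDR peak, chrIV:12451274-12451623, had its summit 114 bp upstream of the start and a signal value of 83.8, rank 1049 of 1244. Replicate 1 gave 68.7 at rank 1022. Replicate 2 gave 14.5 at rank 6177, with a q-value of 0.770 and its summit 40 bp from the IDR summit. As for dpy-27, the peak had a q-value under 0.05 in replicate 1 only, and in replicate 2 89.6% of IDR peaks with a replicate 2 peak ranked as high or higher.

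The gene dpy-28 (WBGene00001087, chromosome III, 10763131 to 10777076, plus strand), for a HEAT-repeat subunit of the condensin, had only weak peaks in its own window. The pooled summit 1657 bp upstream had a signal value of 20.7 at rank 16281, and replicate 1 gave 11.9 at rank 20719. Replicate 2 had none there. The gene lies head to tail behind tasp-1, a taspase homologue on the same strand whose end is 109 bp upstream of the dpy-28 start. Such a gap of at most 500 bp behind a gene on the same strand was found for 3612 of 19973 protein-coding genes, or 18.1%, and for dpy-28 alone among the 10. Operons are not marked in the annotations used here. The start of tasp-1 carried one of the strongest peaks of the series, chrIII:10759078-10759340, with a signal value of 439 at rank 10 of 1244. It ranked 11 in replicate 1 and 13 in replicate 2. Its summit was 100 bp upstream of the tasp-1 start and 3924 bp upstream of that of dpy-28, and it also lay in the windows of rnf-113 and K01G5.10 on the opposite strand.

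For DPY-21, the H4K20 demethylase, the gene dpy-21 (WBGene00001080, chromosome V, 17936282 to 17949193, minus strand) had a pooled peak 623 bp upstream with a signal value of 40.2 at rank 3443 and a q-value of 0.192. Replicate 1 gave 35.5 at rank 2834, with a q-value of 0.00371. The single replicate 2 peak was downstream of a start, with a signal value of 11.9 at rank 12043. A stronger peak lay just beyond the window, at chrV:17951208-17951557, with the summit 2190 bp upstream of dpy-21. It was an IDR peak with a signal value of 148 at rank 306 of 1244, above all 4 members with an IDR summit. It ranked 207 in replicate 1 and 3908 in replicate 2. Its nearest start, 566 bp away, was that of the divergent gene Y59A8B.24. Among summits of the IDR list near the 10 genes, dpy-27 at 641 bp was thus the last inside the 2000 bp limit and dpy-21 at 2190 bp the first outside.

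DPY-30 also serves the COMPASS complexes. The gene dpy-30 (WBGene00001088, chromosome V, 12191519 to 12192385, plus strand) had the highest signal value of the 10 genes, 144, at chrV:12191017-12191366. The summit was 327 bp upstream, and the peak ranked 324 of 1244 in the IDR list. Replicate 1 gave 118 at rank 320, and replicate 2 gave 24.96 at rank 840 with a q-value of 0.0637. It was the only member among the 1244 strongest peaks of each replicate list, a condition met by 4.47% of all genes. By highest pooled signal value dpy-30 stood 491 among the 19973 genes, ahead of dpy-27 at 1163, dpy-26 at 1439 and mix-1 at 1476. The values behind the last 2 places, 83.8 and 82.6, come from 1 pooled list with no replicate error, so their order carries no weight.

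**Figure D2:**
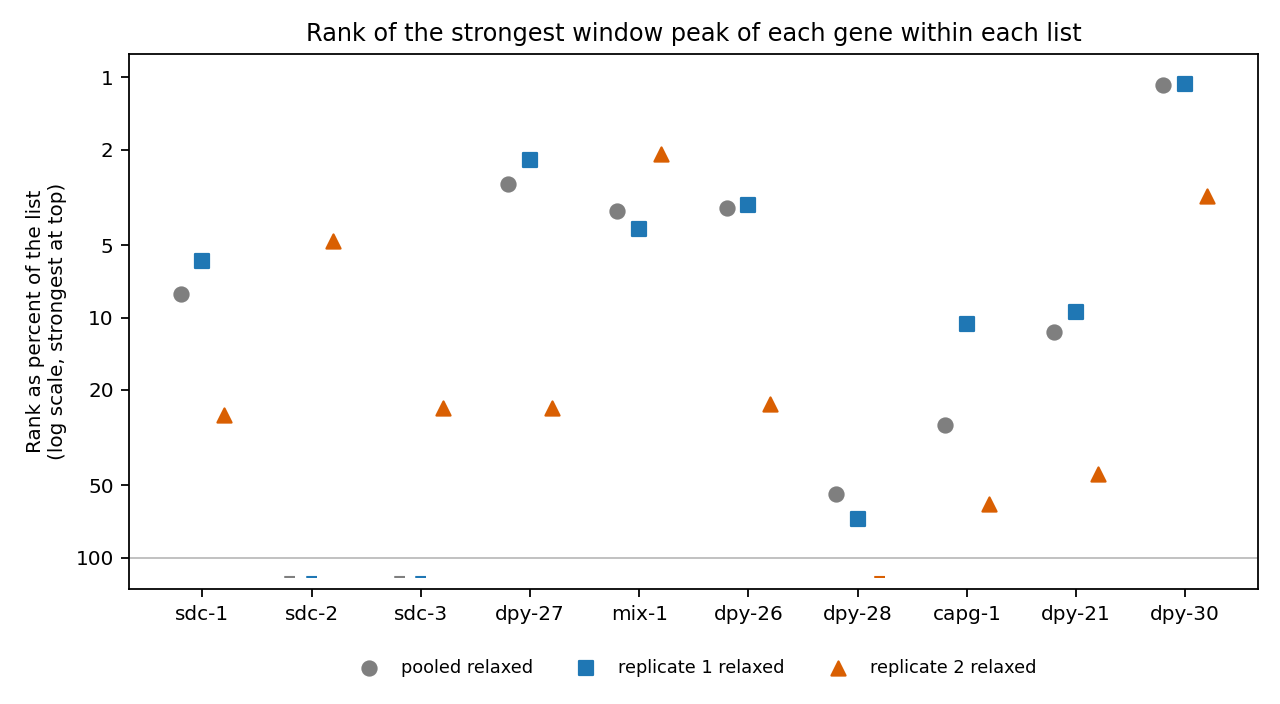
Rank of the strongest window peak of each gene, as a percent of its list, on a log scale with the strongest at the top. Grey circles are the pooled list, blue squares replicate 1 and orange triangles replicate 2, and a dash below the line marks a gene with no peak. The dpy-30 peak is at 1.08% of the pooled list and 3.11% of replicate 2, the mix-1 peak at 2.09% of replicate 2, and dpy-27 and dpy-26 stand beyond 20% of replicate 2.

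Set among all IDR peaks by q-value, the 4 peaks were like the list in replicate 1 and split in replicate 2. All 4 had a q-value under 0.05 in replicate 1, as did 99.5% of IDR peaks. In replicate 2 this held for mix-1 alone, and for 47.5% of IDR peaks. By rank the 4 also spread in replicate 1. Among IDR peaks with a replicate 1 peak, 25.8% ranked as high as dpy-30 or higher. The share was 53.7% for dpy-27, 79.0% for dpy-26 and 90.5% for mix-1. In replicate 2 it was 51.9% for dpy-30 and 40.4% for mix-1. The replicate 1 summits lay 28 bp (dpy-30), 12 bp (dpy-27), 15 bp (dpy-26) and 5 bp (mix-1) from the IDR summits, against a median of 9 bp over the IDR peaks. The replicate 2 summits lay 38, 20, 40 and 0 bp away in the same order, against a median of 30 bp. For all 4 peaks the summit of each replicate thus lay within 40 bp of the IDR summit, including the 2 whose replicate 2 signal was low. At dpy-26 the 2 replicate summits lay on opposite sides of it. The replicate peak taken was the strongest that overlapped the IDR peak, so closeness was partly set by that choice. The IDR list was made from these same lists, so this is a description and no independent check.

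**Figure D3:**
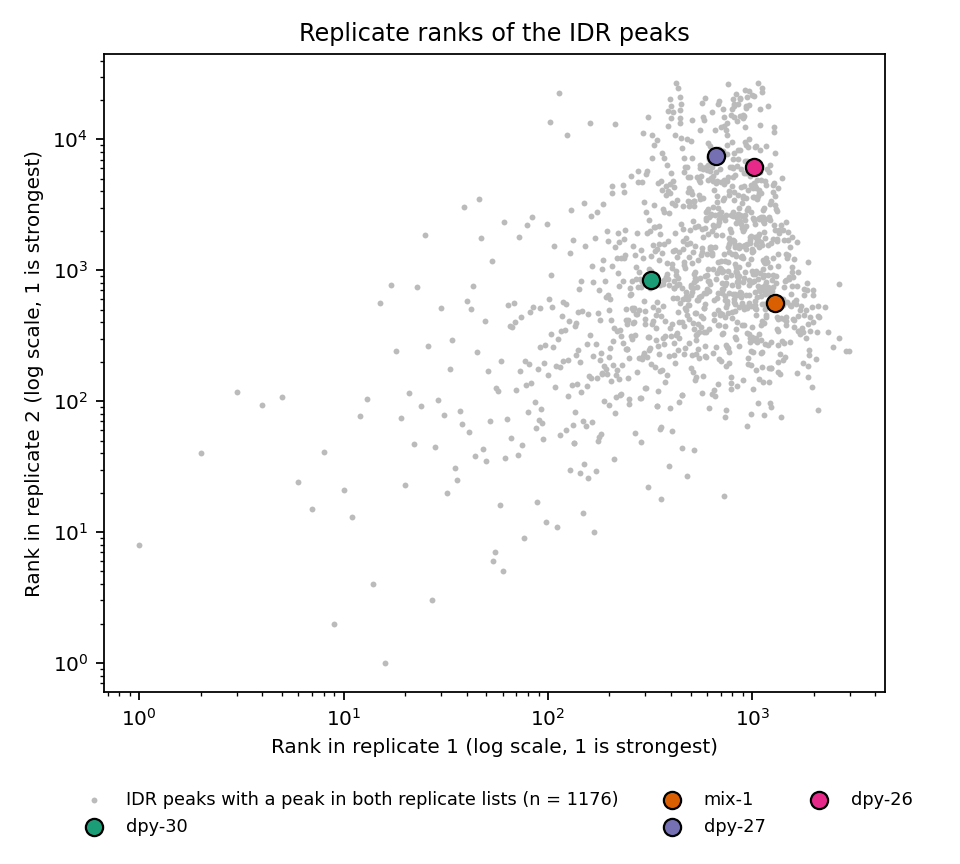
Rank in replicate 2 against rank in replicate 1 for the 1176 IDR peaks found in both lists, both axes on log scales with 1 the strongest. Small grey points are IDR peaks and large coloured points the 4 dosage compensation complex genes. The points of dpy-27 and dpy-26 lie high, at replicate 2 ranks of 7429 and 6177, and those of dpy-30 and mix-1 at 840 and 564.

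By likeness of rank over the pooled and both replicate lists, the nearest peaks to each member peak were taken from 973 IDR peaks. A nearest peak always exists, and the usual distance was not examined. Likeness was the Euclidean distance in log2 rank, and up to 2 of the nearest peaks are named by their nearest start. For dpy-30 they were rcat-1 (distance 0.099) and gid-2 (0.16), with pooled ranks of 329 and 330. For dpy-26, pig-1, which encodes a protein kinase, was among the nearest (0.092). For mix-1 they were C32B5.18 (0.16) and cox-6C, a cytochrome c oxidase subunit (0.17). For dpy-27 they were F11C1.1 (0.17) and C07H6.9 (0.24). None of the peaks named here is at a gene of the complex, though few such peaks were there to be matched.

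The mix-1 and dpy-30 peaks were shared with a neighbouring protein-coding gene, and those of dpy-26 and dpy-27 were not. The mix-1 summit lay 201 bp upstream of R06F6.12, which runs away from mix-1 with the starts 165 bp apart. The peak covers the start of mix-1 and not that of R06F6.12, but its summit is in the window of both. The dpy-30 summit lay 1081 bp upstream of rnp-1, which encodes an RNA-binding protein and starts before the end of dpy-30 on the same strand. With a window of 1000 bp upstream the dpy-30 peak was no longer shared. For dpy-27 only a non-coding record, R13G10.5, had its start 47 bp from the summit, and the divergent gene amx-1 began beyond the window. For dpy-26 the upstream gene spe-44, a regulator of sperm formation on the same strand, ended 727 bp before dpy-26, so the summit stood between them and nearest to dpy-26. In each of the 4 cases the member had the nearest protein-coding start. Sharing was found for 2 of 4 member peaks, against 527 of the 1032 IDR summits in any window, or 51.1%, so the members did not stand apart from the list in this. The median position of the strongest IDR summit over the 1661 genes with one was 321 bp upstream, with quartiles of 929 and 165 bp upstream. The dpy-30 and dpy-27 summits fell between these quartiles, and those of dpy-26 and mix-1 were nearer to the start.

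**Figure D4:**
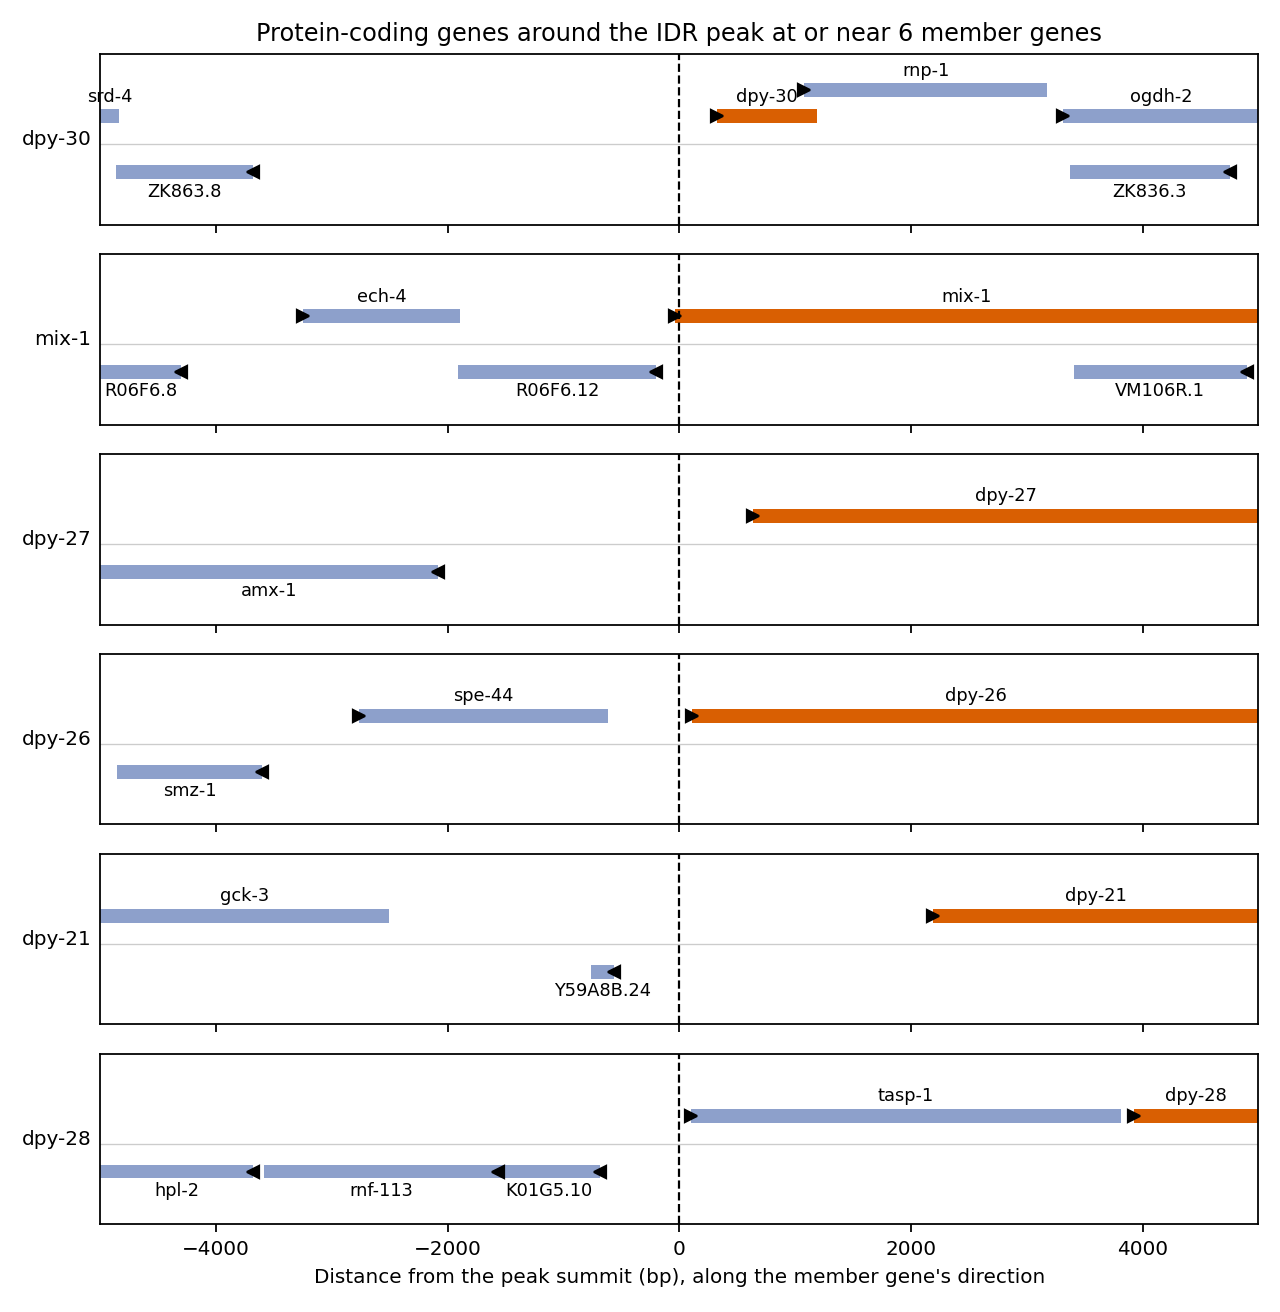
Protein-coding genes within 5000 bp of an IDR summit at dpy-30, mix-1, dpy-27 and dpy-26, or upstream of dpy-21 and dpy-28. The x axis is the distance in bp from the summit (dashed line) along the direction of the member, orange bars are members, blue bars other genes, bars above the line run to the right and those below to the left, and arrowheads mark starts. The mix-1 summit stands just inside mix-1, beside the divergent R06F6.12, and the summit in the dpy-28 panel lies at the start of tasp-1, which ends 109 bp before dpy-28.

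The capg-1 gene (WBGene00009254, chromosome I, 7634492 to 7639785, minus strand) encodes the remaining condensin subunit and had no IDR summit within 69517 bp of its start. Its pooled peak 341 bp upstream had a signal value of 26.6 at rank 8430 and a q-value of 0.771. Replicate 1 had a peak at nearly the same place, 340 bp upstream, with a signal value of 32.1 at rank 3176 and a q-value of 0.0102. Replicate 2 had its strongest window peak 161 bp downstream of the start, with a signal value of 10.8 at rank 16097. The upstream gene F26A3.1 lies on the same strand and ends 562 bp away, just over the 500 bp limit used for a head-to-tail pair. Farther up, 3498 bp from capg-1, the pooled list held a peak with a signal value of 73.7 at rank 1330, 45 bp inside the start of ncbp-2, a nuclear cap-binding subunit gene on the same strand. That value is under the lowest of the IDR list, 76.5.

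A window of 5000 bp upstream was added after the data were seen, because of the peaks near dpy-21 and dpy-28. With it 6 of 10 genes had an IDR summit, against 12.3% of all genes, and all 6 member peaks then also lay in the window of another gene. For dpy-21 and dpy-28 the nearest start to the added peak was the neighbour's, Y59A8B.24 and tasp-1. The 3 SDC genes gained no IDR summit by it.

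None of the 4 IDR windows held a ONECUT core within 50 bp of the summit. ATCGAT was in 0 of 4, against 17.4% of all 1244 IDR windows of this length, and ATTGAT in 0 of 4, against 5.87%. Within 100 bp ATTGAT was in 3 of 4, those of mix-1, dpy-26 and dpy-30, against 17.1%, and ATCGAT was still in 0 of 4, against 28.9%. ACGCAG was found on the opposite strand at dpy-30 (as CTGCGT in the sequence above), against 19.5% of IDR windows. GAGAGA was found at dpy-26, against 25.3%, and ACGCGC at mix-1, against 16.4%. The mix-1 match within 50 bp of the summit lies in the exon that is not printed, and the GCGCGT in its line is a further copy on the opposite strand in the intergenic part of the peak. The dpy-27 window held none of the 5 hexamers. The sdc-1 window held GAGAGA on both strands and ACGCAG, where the last base of GAGAGA is the first of ACGCAG. The peak upstream of dpy-21 held GAGAGA on the opposite strand, and that at tasp-1 held none. The windows also differed in base composition. G and C made up 52.5% of the dpy-27 and dpy-26 windows, 42.6% of that of dpy-30 and 40.6% of that of mix-1, against a median of 47.5% over IDR windows. The peak upstream of dpy-21 reached 63.4% and that at tasp-1 58.4%.

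In C. elegans many messages begin with a trans-spliced leader, and the annotated start is then a splice acceptor and not the base where transcription begins. The acceptor form TTTCAG, on the coding strand only, ended directly at an annotated start of dpy-27, dpy-30, sdc-3 and sdc-1 (the downstream of its 2 starts), 4 of 12 starts in 4 of 10 genes. Over all protein-coding transcript starts 14.2% had TTTCAG within the 15 bases before them. The 30 bases before these starts are shown with the match in capitals. For dpy-27, dpy-30 and sdc-3 the distance from summit to start is counted to this position. The sdc-1 distances above are counted to its other start, 16275763, which had no TTTCAG. The start positions are 3819679 on chromosome III for dpy-27, 12191519 and 15048207 on chromosome V for dpy-30 and sdc-3, and 16275769 on chromosome X for sdc-1.
dpy-27: atatttatcaaaattaattcctttTTTCAG
dpy-30: gatatctcaataattttatacttgTTTCAG
sdc-3: atttgctttcaagattaaattcaaTTTCAG
sdc-1: atgacaattataactttggaacatTTTCAG
The dpy-27 and dpy-30 summits, 641 and 327 bp upstream, were the 2 farthest from their starts among the 4 with an IDR summit. The dpy-26 and mix-1 starts, with summits within 114 bp, had no TTTCAG in these bases. With 4 genes this is a description only. Only the exact TTTCAG was scored, so other acceptor forms were not counted. Trans-splicing of these genes was not tested.

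Other genes of the same processes were taken from 5 lists of 28 symbols, of which 27 matched the annotation (smc-1 did not). An IDR summit in the window was found for 7 of 27, or 25.9%, beside 4 of 10 for the complex and 8.32% of all genes. In the pooled list there were 22 of 27, or 81.5%, against 55.1% of all genes, and in both replicate lists 18, or 66.7%, against 38.6%. With a q-value under 0.05 there were 13 in the pooled list, or 48.1%, against 15.7% of all genes. In replicate 1 there were 17, or 63.0%, against 20.4%, and in replicate 2 there were 4, or 14.8%, against 5.03%. Among COMPASS partners of DPY-30, ash-2 was 1 of 5 with an IDR summit. Its peak, 63 bp downstream of the outermost of its annotated starts, was the strongest of the whole series, with a signal value of 554 at rank 1 in the IDR list and in replicate 1 and rank 8 in replicate 2. The nearest protein-coding start to this peak was not that of ash-2 but that of Y17G7B.20, which runs in the opposite direction. Both H4K20 methyltransferase genes had an IDR summit, set-1 557 bp upstream (signal value 105) and set-4 318 bp upstream (103). The set-1 peak ranked 834 in replicate 1 and 985 in replicate 2, and the set-4 peak ranked 536 in replicate 1 and had no matching peak in replicate 2. DPY-21 acts on the same histone residue as a demethylase.

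Of the other condensin subunits, kle-2 was 1 of 4 with an IDR summit, 684 bp upstream with a signal value of 109.8. The nearest protein-coding start to that summit was that of C29E4.12, not kle-2. The smc-4 gene, for the SMC partner of MIX-1 in mitotic condensin, had a pooled peak of 69.1 at rank 1505. The hcp-6 gene had no window peak in the pooled list or in replicate 1, but in replicate 2 a peak at rank 139 with a signal value of 46.1. Among cohesin genes scc-1, the kleisin, had an IDR summit 287 bp upstream with a signal value of 112. Here too another gene, rpn-5, had the nearest protein-coding start. Of 13 genes of sex determination and X counting, ceh-39 and fox-1 had one in the window. The fox-1 summit, at the gene of an RNA-binding X signal element, lay 1116 bp upstream with a signal value of 139. The ceh-39 summit lay 1805 bp upstream with a signal value of 278, and the strain carries a transgene of ceh-39 whose part in this value was not tested. For xol-1, the switch that represses sdc-2, the window held a pooled peak of 25.8 at rank 9204 and no IDR summit. Outside the windows, xol-1 was the nearest start to an IDR peak 4905 bp upstream, with a signal value of 252 at rank 76 in the IDR list, rank 158 in replicate 1 and rank 26 in replicate 2. The same held for sex-1, with an IDR summit 934 bp downstream of its nearest start (rank 526), and for sea-2, with IDR summits 4545 bp upstream (rank 451) and 5788 bp downstream (rank 885).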

How the data were processed

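CEH-39 ChIP-seq of 2 biological replicates was read from 4 ce11 peak lists in the 10-column narrowPeak layout. Per the deposited description files, relaxed lists were called against a control on each replicate and on both together, and these gave the IDR list. Aligner and caller: not given in the sources used here. Column 7 is the authors' deposited signal score, and column 9 the deposited −log10 q-value. No read counts were used, so depth is unknown. Rank 1 is the highest column 7. All 1244 IDR peaks were identical to pooled peaks and were the pooled peaks with the highest values.

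Gene models were those of Ensembl release 115 (WBcel235, 19973 protein-coding genes, 29784 distinct starts), which holds all peak ends. Coordinates count from 1. Intervals are exact (Clopper-Pearson) at 95%. All counts are descriptions without tests. The 10 genes, the lists and the motifs were chosen with earlier results of these data known. Named genes were the members, genes sharing their IDR summits, pathway genes with an IDR summit and the 2 peaks most like each member in rank, except the closest for dpy-26, which is not reported here; Y17G7B.20, ncbp-2, tasp-1, hcp-6, smc-4, xol-1, sex-1, sea-2 and other neighbours were added after their values were seen. Alternatives changed the window, the list, the q-value, the assignment, the build and the motif window. Assignment was tested on simulated data. Python 3.11.15, numpy 2.4.6, pandas 2.3.3, scipy 1.17.1 and matplotlib 3.10.9 were used.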

Additional observations from a re-analysis of the deposited data

How the results depend on the processing

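No paired analysis was possible because the series holds 1 group and no result comes from a test. The count of 4 members with an IDR summit was 1 (dpy-30) in the 622 strongest IDR peaks (4.39% of all genes), and 2 to 3 when the 1244 strongest peaks of a single replicate were used: 3 without replicate 2 (mix-1 was lost; 8.28% of all genes) and 2 without replicate 1 (dpy-27 and dpy-26 were lost; 7.13%). It was 3 to 6 under the other settings, where the share of all genes ran from 4.93% to 14.7%. The count of pooled members was 5 with q under 0.05 (15.7%). The count in both replicates was 1 with q under 0.05 (mix-1; 4.61%) and 1 in the strongest 1244 of each (dpy-30; 4.47%). Member peaks shared with a neighbour numbered 1 with 500 or 1000 bp upstream, 1 in the strongest IDR peaks, 1 to 2 without a replicate and 6 with 5000 bp. The share over all IDR summits was computed for the main window only, so these counts have no background. Within 100 bp of the summit, ATTGAT was in 3 member windows (all IDR windows 17.1%) and GAGAGA in 2 (38.9%). Within 25 bp ACGCAG was in 0 (10.5%). In all, 30 of 43 alternatives for counts stayed within 1.5 times. Each peak was paired with a ce10 peak, and the ranks were identical for the IDR, pooled and replicate 1 peaks of the 4 genes. Some peaks had several ce10 candidates (2 for dpy-26 in the IDR list, 7 for dpy-27 in replicate 2). Equal ranks are therefore no independent check of the build. The ce10 list of replicate 2 held 24544 peaks, against 27014 in ce11. In it the peak paired with the strongest window peak ranked 573 for mix-1 (564 in ce11), 6347 for dpy-26 (6177) and 6577 for dpy-27 (6428). The dpy-27 peak compared was the one 1653 bp upstream, not the one matching the IDR peak, which ranked 7429 in ce11. No ce10 match was found for the dpy-30 peak of replicate 2. The cause of these differences was not tested. With 1 strain and unknown depth, weak peaks in a single list cannot be told from background.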
